A study of Mus musculus with 15 samples.

Results

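Expression of 100 genes of chromatin modifiers and remodellers was read from Affymetrix arrays of mouse thymocytes and CD4+ T cells with and without N-ras. The genes were taken by symbol alone: every annotated gene whose name starts with Kmt, Kdm, Kat, Hdac, Setd, Ezh, Suv39, Suv4, Cbx, Chd, Smarc or Arid, with Kdm5c, Kdm5d and Kdm6a left out, which gave 100 of the 18194 genes named on either array type. No gene named Suv4 was present. The rule also took in 5 genes that do not act on chromatin, namely the microtubule-severing katanin genes Katna1, Katnal1, Katnal2 and Katnbl1 and the choline dehydrogenase Chdh, which leaves 95. All 100 genes were on the CD4+ T-cell arrays, with 243 probe sets (a probe set is a group of short probes that together read 1 transcript), and 74 of them were on the thymocyte arrays, with 129 probe sets.

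All mice were of the 129/SJ strain. The labels give an age of 6 to 20 weeks for both experiments, and the methods give the mice used for thymocytes as 6 weeks old. WT mice were littermates of the N-ras KO mice, which lack N-ras in every cell. CD4+ T cells from the spleen were kept overnight in T-cell medium, either with antibodies to CD3 and CD28 at 1 µg/ml, a low-level stimulus of the T-cell receptor (TCR), or with no antibody, and each of the 4 groups had 3 arrays. Thymocytes were taken directly from the thymus of mice lacking H-ras, mice lacking N-ras and WT mice, with 1 array for each genotype, so differences between thymocytes have no replicate check.

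DNA in the nucleus is wrapped around histones, and enzymes add chemical marks to the histone tails or take them off. Methyltransferases (most of the Kmt and Setd genes, Ezh1, Ezh2 and Suv39h2) and acetyltransferases (Kat) write marks, while demethylases (Kdm) and deacetylases (Hdac) erase them. The chromobox proteins (Cbx) read methylated histones, and the ATP-driven remodellers (Chd, and the subunits of the SWI/SNF complexes and their relatives, from the Smarc and some of the Arid genes) move or evict nucleosomes. When a resting T cell is activated through its receptor, it opens chromatin at cytokine and cell-cycle genes, and several of these enzymes are known to shape helper T-cell fates.

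The deposited values hold differences only. For each probe set, the median of the 3 unstimulated arrays of a genotype had been set to 0, and so had the median of the 3 thymocyte arrays. A value of 0 therefore marks the middle array and not a lack of RNA, unstimulated WT cells cannot be compared with unstimulated N-ras KO cells, and neither levels of different genes nor the labelled cell types could be checked by brightness. In stimulated cells, a difference of WT minus N-ras KO is a difference between the heights above each genotype's own unstimulated baseline.

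The Nras probe sets checked the labels. In thymocytes they were lower in the N-ras KO than in the WT array by 1.81 to 2.46 on the log2 scale, and within 0.28 of it in the H-ras KO array. In CD4+ T cells they went against the labels on both arrays of WT number 1, with values from -0.14 down to -3.04, and on both arrays of N-ras KO number 3, with values from 0.80 to 2.09, so genotypes of CD4+ T cells are given as labelled. Arrays of the same genotype and number deviated together (correlation over all probe sets 0.361 to 0.738), while arrays of the same number but of the other genotype deviated in opposite directions (-0.117 to -0.621). The latter was not particular to a shared number: number 1 of either genotype and number 2 of the other also deviated in opposite directions (-0.212 to -0.343). Number 3 deviated together with numbers 1 and 2 of the other genotype (0.261 to 0.47). Known targets of TCR stimulation served as a reference for the size of a response: of 33 probe sets of T-cell activation genes, 11 in cells labelled WT and 10 in cells labelled N-ras KO were higher past the study's thresholds, an unadjusted p of 0.05 and a 1.5-fold difference, and none were lower; with arrays paired by number, 16 and 14 were higher.

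The promoters of 4 members that the results turn on are shown because 3 of the genes are described in both experiments below (Kmt2a, Kmt2c, Cbx5) and Kat7 had the largest difference of all members. Each run covers 250 bases before to 50 bases after the annotated start, on the minus strand of GRCm38.p6 in RefSeq, and capitals mark the GC box GGGCGG and the Ets core CCGGAA on either strand. Kmt2a lies at chr9:44881240-44881539, Kmt2c at chr5:25498734-25499033, Cbx5 at chr15:103239803-103240102 (the upstream one of 2 annotated windows) and Kat7 at chr11:95310197-95310496.
Kmt2a: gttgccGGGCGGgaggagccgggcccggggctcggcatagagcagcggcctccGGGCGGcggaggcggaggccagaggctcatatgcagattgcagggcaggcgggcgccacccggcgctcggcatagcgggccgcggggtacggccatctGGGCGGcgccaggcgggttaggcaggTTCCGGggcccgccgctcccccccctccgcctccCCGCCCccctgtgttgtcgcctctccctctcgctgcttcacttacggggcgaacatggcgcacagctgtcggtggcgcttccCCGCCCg
Kmt2c: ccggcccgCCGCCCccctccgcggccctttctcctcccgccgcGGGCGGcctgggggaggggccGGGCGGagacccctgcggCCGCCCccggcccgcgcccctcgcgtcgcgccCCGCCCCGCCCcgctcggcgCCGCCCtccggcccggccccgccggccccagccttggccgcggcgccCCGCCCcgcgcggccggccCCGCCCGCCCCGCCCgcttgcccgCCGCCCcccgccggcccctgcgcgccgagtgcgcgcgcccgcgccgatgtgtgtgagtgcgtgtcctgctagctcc
Cbx5: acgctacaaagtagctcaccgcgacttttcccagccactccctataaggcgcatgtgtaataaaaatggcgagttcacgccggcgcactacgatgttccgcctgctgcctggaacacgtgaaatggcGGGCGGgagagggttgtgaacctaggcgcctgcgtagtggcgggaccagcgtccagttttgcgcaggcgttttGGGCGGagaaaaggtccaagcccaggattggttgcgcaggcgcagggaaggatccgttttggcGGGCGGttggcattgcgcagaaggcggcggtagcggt
Kat7: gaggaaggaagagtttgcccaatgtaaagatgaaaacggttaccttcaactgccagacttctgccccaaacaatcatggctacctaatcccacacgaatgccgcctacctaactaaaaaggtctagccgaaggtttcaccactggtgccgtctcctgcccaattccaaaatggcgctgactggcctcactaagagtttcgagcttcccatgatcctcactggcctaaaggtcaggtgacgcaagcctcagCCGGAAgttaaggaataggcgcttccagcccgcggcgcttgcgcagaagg
The Kmt2c window held 56 CpG dinucleotides and 12 GC boxes, the Kmt2a window 36 and 5, the Cbx5 window 29 and 3, and the Kat7 window 14 and 0. An Ets core was found once each in Kmt2a and Kat7. RefSeq windows were matched for 76 of the 100 genes, 104 windows in all. A GC box was present in 65.4% of these windows against 35.7% of all 32851 windows, an Ets core in 24% against 14.9%, the cyclic AMP response element TGACGTCA in 1.92% against 1.79%, and the AP-1 element TGANTCA, the target of Fos and Jun, in 9.62% against 7.81%. The median window of a member held 24.5 CpG dinucleotides and the median of all windows held 7. None of the 4 windows printed held the cyclic AMP or the AP-1 letters, and such matches describe sequence only.

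In thymocytes, WT differed from N-ras KO past 1.5-fold in 4 of 129 probe sets of chromatin genes. The heterochromatin reader Cbx5 (heterochromatin protein 1 alpha) was higher in WT, while the Polycomb reader Cbx7 and the H3K4 methyltransferases Kmt2c and Kmt2a were lower. The share higher was 1 of 129, with 1.09% of all probe sets past that fold, and the share lower was 3 of 129, with 1.55% of all. Against H-ras KO, no member was higher past 1.5-fold (1.51% of all probe sets) and 2 were lower (1.47% of all), Kmt2a and Cbx7. Both comparisons use the same WT array, so a value particular to that array enters both.

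The Kmt2c probe set 1427150_at read -0.52 in the WT, 0.20 in the N-ras KO and 0.00 in the H-ras KO array. WT thus stood below both knockouts, with log2 differences of -0.72 and -0.52. For Kmt2a 1452377_at, the values were -0.59, 0.00 and 0.10, so that WT minus N-ras KO was -0.59 and WT minus H-ras KO -0.69. The second Kmt2a probe set, 1427283_at, pointed the same way with smaller differences (-0.34 and -0.24). Kmt2e, a relative without known methyltransferase activity, was lower in WT than in N-ras KO by both of its probe sets (-0.18 and -0.31), and Kmt2d was listed at 0 on all 3 arrays. Of the 13 Kmt probe sets, 8 were lower and 3 higher in WT when set against N-ras KO (median -0.16), and 8 were lower and 4 higher than in H-ras KO (median -0.08), with medians over all probe sets of 0. Of 11 Chd probe sets, 8 were likewise lower and 1 higher in WT when set against N-ras KO (median -0.04). Kmt5a, which places a methyl mark on histone H4, went the other way in 1426406_at (0.34 and 0.17).

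The 2 Cbx7 probe sets moved in step. They read -0.65 and -0.41 in WT, 0.09 and 0.09 in N-ras KO, and 0.00 in H-ras KO, giving WT minus N-ras KO differences of -0.74 and -0.50. The second of these values, Cbx7 1420039_s_at, is just short of 1.5-fold, as are Chd6 (-0.46) and the H3K9 methyltransferase Setdb1 (-0.43 in 1458215_at, with 0.30 and 0.00 in its other probe sets). The 5 Cbx5 probe sets did not move in step. Cbx5 1450416_at read 0.06 in WT, -0.66 in N-ras KO and 0.00 in H-ras KO, the only member whose N-ras KO array alone stood apart past 1.5-fold. The other Cbx5 probe sets gave WT minus N-ras KO differences of 0.35, 0.00, -0.07 and -0.21. Suv39h2, which methylates H3K9 and so makes the mark that Cbx5 binds, was above the N-ras KO array in the WT array by both probe sets (0.41 and 0.17), short of 1.5-fold.

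**Figure D1:**
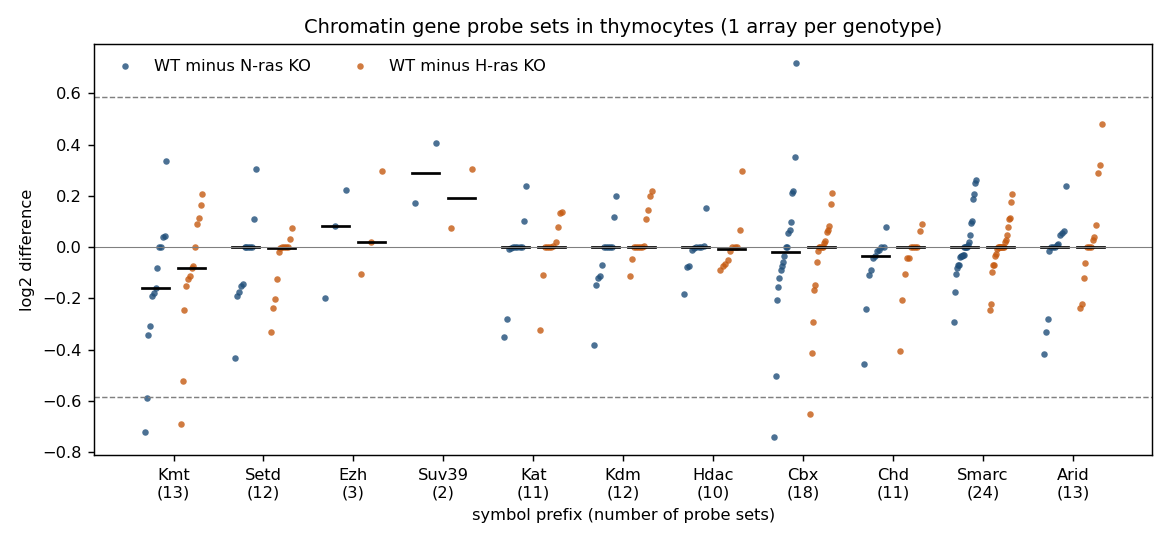
Log2 differences between single thymocyte arrays for the 129 probe sets, by symbol prefix, WT minus N-ras KO in blue and WT minus H-ras KO in orange; each point is 1 probe set, black bars are medians and dashed lines mark 1.5-fold. Most points lie near 0, and the Kmt and Cbx groups hold all the points past the dashed lines.

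The remaining thymocyte values were small. In the comparison with N-ras KO, 38 probe sets were higher in WT, 60 lower and 31 equal (29.5%, 46.5% and 24.0%, against 35.7%, 32.3% and 32.0% of all probe sets). With H-ras KO, the split was 45 higher, 49 lower and 35 equal (34.9%, 38.0% and 27.1%, against 31.9%, 32.9% and 35.1% of all). The median absolute difference was 0.07 for both comparisons of the members, and 0.05 and 0.04 for all probe sets. In 23 probe sets of members, the 3 arrays held the same value, 0 (17.8%, against 23.7% of all). The highest member against H-ras KO was Arid5b 1420973_at (0.48), which read 0.24 in WT, 0.00 in N-ras KO and -0.25 in the array without H-ras. Neutrophil genes differed between the same arrays: 7 of 8 marker probe sets were above both knockouts past 1.5-fold in WT, with medians of 1.45 against N-ras KO and 2.01 against H-ras KO, and the other one, Elane, differed by 0.54 and 0.50. Of 8 B-cell probe sets, 1 was lower against N-ras KO and 3 were higher against H-ras KO. The part of such cells in the chromatin gene values was not tested.

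In CD4+ T cells, no probe set of a chromatin gene passed an adjusted p of 0.05 in any comparison by limma, and neither did any of the 45101 probe sets, so the counts below use the study's thresholds. In cells labelled WT, stimulation came with 2 higher member probe sets, of Kat7 and Cbx5 (0.53% of all probe sets were called higher), and no lower one (0.51% of all). In cells labelled N-ras KO, 1 was higher, of Arid4b (1.16% of all), and none was lower (1.19% of all). At an unadjusted p of 0.05 with no fold limit, the same counts of 2 and 1 were found (1.15% and 2.58% of all). With arrays paired by number within a genotype, 4 were higher and 0 lower in cells labelled WT (1.43% and 1.37% of all), and 9 were higher and 1 lower in cells labelled N-ras KO (2.25% and 2.65% of all). The median size of a response regardless of sign was 0.15 for members and 0.16 for all probe sets in cells labelled WT, and 0.20 and 0.19 in cells labelled N-ras KO.

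Among the writers, the Kmt genes leaned downward in cells labelled WT: 21 of 25 probe sets, from 8 genes, had a lower mean after stimulation, with a median of -0.17, although none was called. All 6 probe sets of Kmt2e and all 4 of Kmt2c were among the 21, so these are not independent readings. The median over all probe sets was 0.003, and no share of all probe sets was counted for the signs. Without the arrays of doubtful label (WT 1 and N-ras KO 3) the count was 22 of 25, and without the 4 arrays numbered 3 it was 20 of 25. In cells labelled N-ras KO, 11 of the 25 were lower (median 0.02). The difference between the 2 responses was negative in 19 of the 25 (median -0.17, against -0.01 over all probe sets), and none of the 25 passed the thresholds in it without pairing. Setd genes had medians of -0.07 and 0.00 in the genotypes labelled WT and N-ras KO.

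Suv39h2 had no call in either genotype, and its 3 probe sets gave unequal responses. The paired differences of 1433996_at were 1.61, 0.38 and 1.43 in cells labelled WT and 0.43, -0.70 and 3.23 in cells labelled N-ras KO. The mean response was 1.14 ± 0.72 (limma standard error) and 0.99 ± 0.72, with an adjusted p of 1 in each. The other probe sets gave 0.00 and 0.65 (1422979_at) and 0.29 and 0.15 (1436561_at).

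Ezh2, the methyltransferase of Polycomb repressive complex 2, which places H3K27 methylation, had paired differences that were small but even. Its only probe set read -0.18, 0.00 and 2.38 on the unstimulated and 0.15, 0.34 and 2.76 on the stimulated arrays labelled WT. In cells labelled N-ras KO the values were 0.00, 0.56 and -2.35 without and -0.13, 0.47 and -2.56 with the stimulus. The groups overlap, yet the paired differences were 0.34, 0.34 and 0.37 in cells labelled WT and -0.13, -0.09 and -0.21 in cells labelled N-ras KO. The difference between the responses was 0.49, under 1.5-fold, with a standard error of 1.55 unpaired and 0.17 paired (adjusted p of 1 and 0.96).

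Kat7, an acetyltransferase of the MYST family that acetylates histones H3 and H4, had the largest value of all members. Its probe set 1459975_at read -0.36, 0.00 and 1.61 without and 2.19, 3.33 and 1.99 with the stimulus in cells labelled WT, and 0.15, -1.35 and 0.00 without and 0.33, 0.01 and -1.88 with it in cells labelled N-ras KO. Every stimulated array labelled WT was above every unstimulated one, whereas the cells labelled N-ras KO showed no such order. The response was 2.09 ± 0.71 in cells labelled WT (adjusted p of 1). It was no longer past the thresholds without the stimulated array WT 2 (1.67) or the unstimulated array WT 1 (1.70). The 2 other Kat7 probe sets gave responses of 0.13 and -0.52.

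Among the erasers, Kdm6b, a demethylase of H3K27 known as an inducible gene of immune cells, was higher on all 6 stimulated arrays than on their unstimulated partners by 1 of its 3 probe sets. This probe set, 1442643_at, had paired differences of 0.65, 0.55 and 0.42 in cells labelled WT and 2.32, 1.13 and 0.07 in cells labelled N-ras KO, while the mean responses of the others were -0.03 and 0.24 in cells labelled WT and 0.06 and 0.29 in cells labelled N-ras KO. The second gene of this kind was Hdac7, a class IIa deacetylase expressed in thymocytes. Hdac7 1420813_at gave 0.30, 0.25 and 0.53, and then 0.04, 0.69 and 0.50, and Hdac7 1420812_at also gave 6 positive differences. Kdm2b 1459861_s_at and 1452198_at, for a demethylase of a variant Polycomb complex, and the katanin gene Katnbl1 (1426495_at) complete the list. All 6 paired differences were thus positive in 6 of 243 member probe sets (2.47%, against 2.42% of all), and negative in 3 (1.23%, against 2.13% of all). The 3 lower ones belong to the H3K4 demethylase Kdm5b (1442278_at), the ISWI ATPase Smarca5 (1440048_at) and Kdm2a (1435329_at), a demethylase of H3K36, with mean responses between -0.17 and -0.39.

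Counted within a genotype, the 3 paired differences of cells labelled WT had 1 sign in 34 higher and 34 lower member probe sets (14.5% and 13.5% of all probe sets), and those of cells labelled N-ras KO in 27 higher and 22 lower (13.8% and 12.9% of all).

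Among the readers, Cbx5 responded in cells labelled WT. In 1421933_at the unstimulated arrays read 0.00, 0.85 and -0.54 and the stimulated arrays 1.40, 1.85 and 0.72, so the groups overlap while each pair shows an increase, of 1.40, 1.00 and 1.26. In cells labelled N-ras KO, the pairs gave -0.58, 1.40 and -0.48. The response labelled WT was 1.22 ± 0.49 (adjusted p of 1). It fell short of the thresholds without any one of the stimulated arrays WT 1 (1.18) and WT 2 (0.96) or the unstimulated arrays WT 1 (1.17) and WT 3 (0.90), and without the arrays of doubtful label (1.13). Of the other 4 Cbx5 probe sets, 3 also had a positive mean response in cells labelled WT (0.39, 0.62 and 0.32) and 1 a response of 0.02.

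**Figure D2:**
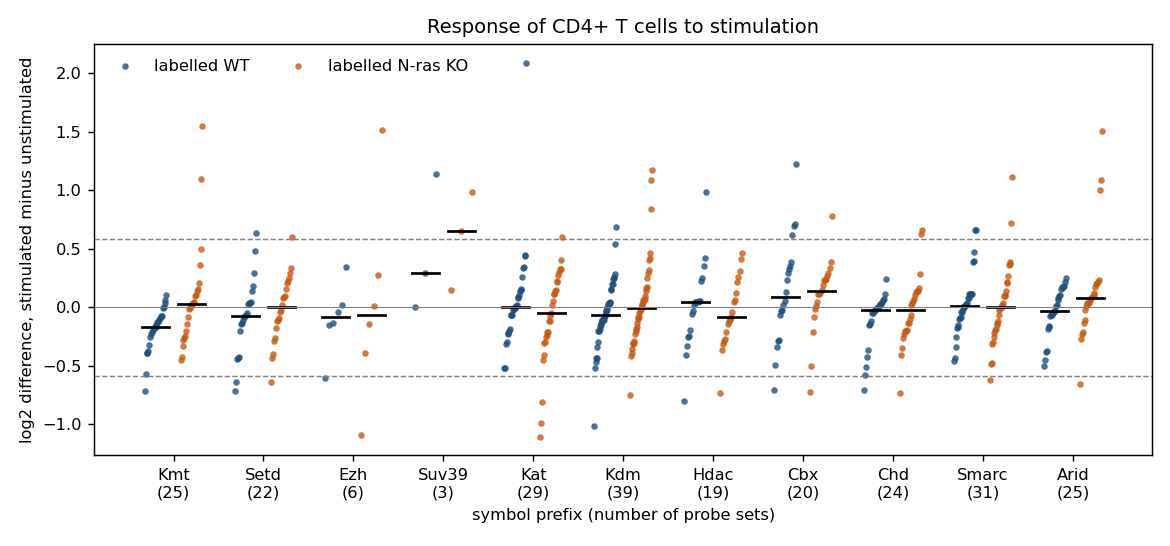
Mean log2 response to stimulation of the 243 probe sets in CD4+ T cells by symbol prefix, labelled WT in blue and labelled N-ras KO in orange; each point is 1 probe set, black bars are medians and dashed lines mark 1.5-fold. The highest blue points are Kat7 (2.09), Cbx5 (1.22) and Suv39h2 (1.14), and the blue Kmt points lie mostly below 0.

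Among the Chd, Smarc and Arid genes, the response of Arid4b, a subunit of the Sin3 deacetylase complex, was the only one past the thresholds in cells labelled N-ras KO. Arid4b 1446317_at read -0.75, 0.00 and 1.08 without and 1.15, 1.92 and 1.78 with the stimulus in those cells, and 0.23, 0.00 and -0.63 without and 0.17, -1.18 and 0.39 with it in cells labelled WT. Stimulated and unstimulated arrays did not overlap in the former and overlapped in the latter. The response was 1.51 ± 0.52 (adjusted p of 1), and was lost from the calls without the stimulated array N-ras KO 2 (1.36) or the unstimulated array N-ras KO 1 (1.08). The other 5 Arid4b probe sets gave responses from 0.03 to 1.00 in these cells.

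With pairing, the higher probe sets in cells labelled N-ras KO were those of Chd1, Kdm4c, Smarce1, Kdm6b, Smarca2, 2 of Arid4b and 2 of Kmt5a, and the lower one belonged to Katnbl1 (-1.11). Kmt5a 1441557_at had paired differences of -0.08, 2.19 and 2.54, which is a gain in pairs 2 and 3 and none in pair 1. Its second called probe set, 1459779_s_at, had paired differences of 0.03, 2.07 and 1.18, while the remaining 2 had mean responses of 0.03 and 0.14. In cells labelled WT the paired calls were Cbx5, Kat7, the Polycomb reader Cbx8 (0.70 in 1419199_at) and the BAF ATPase Smarca4 (0.66 in 1426804_at). Smarca4 1426804_at read -0.53, 0.00 and 0.09 without and 0.19, 1.06 and 0.29 with the stimulus, with no overlap.

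The difference between the responses asks whether stimulation acted differently in the genotypes. No member probe set was called in it by the unpaired fit at the study's thresholds (0.665% of all probe sets were called higher and 0.627% lower). None passed an unadjusted p of 0.05 with no fold limit either (1.30% of all). By the paired fit, 2 were higher in the response labelled WT (2.28% of all) and 6 lower (1.84% of all), with adjusted p of 0.96. The higher were the remodeller Smarcad1 (1.28) and Katnbl1 (1.25). The lower were Kdm4c (-1.03), Hdac5 (-0.87), the PBAF subunit Arid2 (-0.71), the BAF subunit Smarce1 (-1.57), Arid4b (-1.58) and Kmt5a (-1.48 in 1459779_s_at). Hdac8, a class I deacetylase, had the smallest unadjusted p of its prefix by the unpaired fit and rested on 1 pair, with differences of -2.05, -0.30 and -0.05 in cells labelled WT.

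Kdm4c, a demethylase of H3K9, had pairs of opposite sign in the 2 genotypes. Its only probe set read -0.29, 0.53 and 0.00 without and -0.49, 0.19 and -0.02 with the stimulus in cells labelled WT, and 0.00, 0.05 and -1.24 without and 0.88, 0.50 and -0.06 with it in cells labelled N-ras KO. All 3 pairs labelled WT went down slightly (-0.21, -0.34 and -0.02) and all 3 pairs labelled N-ras KO went up (0.88, 0.46 and 1.18). The unpaired fit gave a difference of -1.03 ± 0.56 and the paired fit the same difference with a standard error of 0.25. Hdac5, a class IIa deacetylase, had pairs of -0.37, -0.24 and -0.62 and of 0.25, 0.31 and 0.83.

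The comparison of stimulated cells labelled WT and N-ras KO, the contrast the study was built around, gave the most calls. Of 243 member probe sets, 5 were higher in cells labelled WT (3.33% of all probe sets) and 7 lower (3.57% of all). The higher ones belonged to Kat7, Setd6, Katnbl1, Smarcad1 and Cbx5, and the lower ones to Cbx1, Smarce1, Arid4b, Kdm2a, Chd5, Ezhip and Kmt2c. The smallest adjusted p among members was 0.46, for Kat7. The median difference was -0.02 for members and -0.03 for all probe sets.

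Kat7 1459975_at stood 3.02 ± 0.71 higher in cells labelled WT, with all 3 stimulated arrays (1.99 to 3.33) above those labelled N-ras KO (-1.88 to 0.33). Its other probe sets gave 0.09 and -0.29. For Setd6, which methylates the NF-kB subunit RelA, 1428797_at read 1.14, 0.60 and 2.45 against -0.47, -0.50 and -1.25, a difference of 2.13 ± 0.91 (adjusted p of 0.64). The unstimulated arrays numbered 3 already read 2.42 in WT and -3.01 in N-ras KO for this probe set. The difference between its responses was only 0.39. A second Setd6 probe set, 1428798_s_at, gave 1.59 and the last one -0.25. The call for Setd6 was kept only when the array left out was the stimulated WT 2 or an unstimulated one: it was lost without the stimulated array WT 1 (2.26), WT 3 (1.61), N-ras KO 1 (2.27), N-ras KO 2 (2.25) or N-ras KO 3 (1.88). It was also lost in the fit with array number over both genotypes as a block.

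Smarcad1, a SNF2-type remodeller that acts in heterochromatin, read 0.77, 0.21 and 1.82 against -1.25, -0.06 and -1.04 in 1435651_a_at, a difference of 1.72 ± 0.61 that was not called without the stimulated arrays N-ras KO 1 (1.49) or WT 3 (1.27). Its other probe set gave 0.22. Cbx5 1421933_at read 1.40, 1.85 and 0.72 against -0.22, 0.07 and -0.48, with no overlap, and differed by 1.53 ± 0.49 (adjusted p of 0.57). Without the arrays of doubtful label, the differences of Cbx5 (1.36), Setd6 (2.01), Smarcad1 (1.67), Kdm2a (-1.86) and Ezhip (-0.68) were no longer called, while Kat7, Katnbl1, Cbx1, Smarce1, Arid4b, Chd5 and Kmt2c were. Katnbl1 differed by 1.87 in 1443314_at.

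Cbx1 (heterochromatin protein 1 beta) went opposite to Cbx5. Its probe set 1431773_at read -1.78, -0.95 and -0.99 in stimulated cells labelled WT and 0.33, 0.70 and 1.52 in those labelled N-ras KO, a difference of -2.09 ± 0.66 (adjusted p of 0.56) that was not called without the 4 arrays numbered 3 (-1.88). The other 4 Cbx1 probe sets gave values from -0.64 to 0.20. Smarce1 1430822_at read -0.35, -0.50 and -0.13 against 1.34, 0.37 and 2.97, a difference of -1.89 ± 0.71. It was not called without the stimulated array N-ras KO 3 (-1.19), WT 1 (-1.88) or WT 2 (-1.80). The other 2 Smarce1 probe sets gave -0.13 and 0.43. Arid4b 1446317_at differed by -1.83 ± 0.52, but 3 of the 6 Arid4b probe sets were positive here, up to 1.22 in 1460384_a_at.

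Kdm2a 1444358_at read 0.47, -2.42 and 0.13 against 0.67, 0.75 and 1.67, so that 1 array, the stimulated WT 2, carried most of the difference of -1.64 ± 0.66. Without that array it was -0.73 and without the stimulated N-ras KO 3 it was -1.32, neither of them called. Chd5, a remodeller best known from neurons and testis, read 0.14, 0.04 and -0.78 against 1.26, 0.46 and 0.43, without overlap. It differed by -0.92 ± 0.34 and was not called without the stimulated arrays N-ras KO 1 (-0.64) or WT 3 (-0.63). Ezhip, an inhibitor of Polycomb repressive complex 2 known from germ cells, read -0.01, -0.35 and -0.63 against 0.44, -0.06 and 0.83, with 1 array overlapping. The difference of -0.73 ± 0.30 lost its call without the stimulated arrays N-ras KO 1 (-0.72), N-ras KO 3 (-0.52), WT 2 (-0.73) or WT 3 (-0.58) and with the block. For Kmt2c 1434178_at, the stimulated arrays read -0.44, -0.23 and -0.25 against 0.73, 0.36 and 0.05, a difference of -0.68 ± 0.24 (adjusted p of 0.59), lost without the stimulated arrays N-ras KO 1 (-0.51) or WT 1 (-0.62) and after a second quantile normalization (-0.59). The other Kmt2c probe sets gave -0.21, 0.00 and 0.41.

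Markers of other cells moved with this comparison as well. The mean of 8 neutrophil probe sets was 0.35, -2.06 and -0.53 on the stimulated arrays labelled WT and 1.88, 1.18 and -0.36 on those labelled N-ras KO, and 2 of the 8, Ngp and Camp, were called lower in cells labelled WT. In the list of CD8 and NK cells, 1 of 10 probe sets, of Cd8a, was called higher (1.29). Of these 10, 7 were positive, while Gzma, not called, differed by -1.89. In the list of immature thymocytes 1 of 8, of Dntt, was called lower (-3.55). No share over all probe sets was counted for the fit with array number over both genotypes as a block. In it, 2 of the CD8 and NK list were higher and 1 lower, and 3 neutrophil probe sets were lower. Of 9 B-cell probe sets 1 was lower, of 12 macrophage probe sets 1 was higher, and of 8 immature thymocyte probe sets 1 was lower. Their part in the chromatin gene values was not tested.

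**Figure D3:**
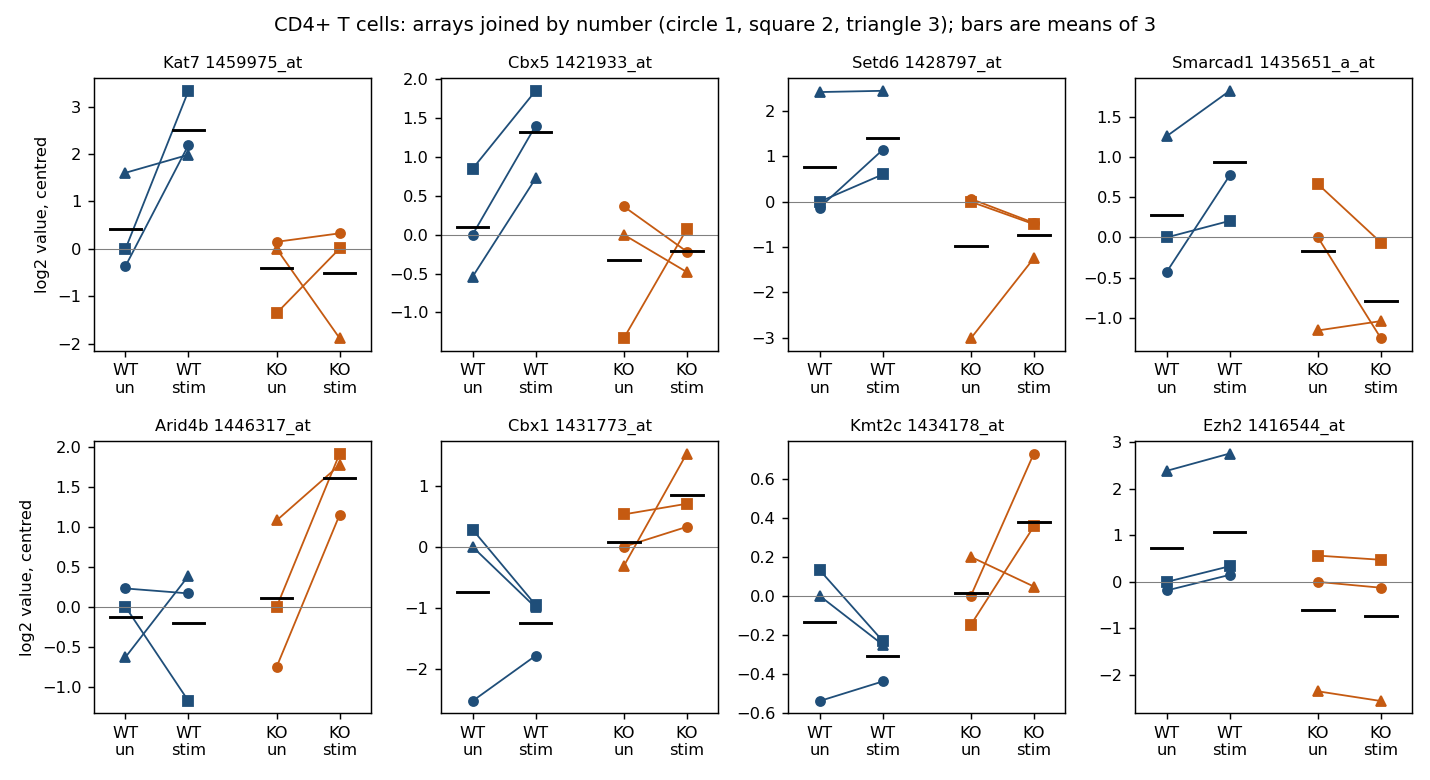
Centred log2 values on the 12 CD4+ T-cell arrays for 8 probe sets, labelled WT in blue and labelled N-ras KO in orange, without (un) and with (stim) the stimulus; lines join arrays of 1 number, black bars are means, and each panel has its own vertical scale. In Kat7, Cbx5, Setd6 and Smarcad1 the stimulated blue points lie above the stimulated orange points, in Arid4b, Cbx1 and Kmt2c below them, and in Ezh2 the triangles of pair 3 stand far from the rest in opposite directions.

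Arrays numbered 3 stood apart in many members. In 25 of 243 probe sets, both arrays of WT 3 were above 1 on the centred log2 scale (10.3%, against 6.22% of all probe sets), and in 27, both arrays of N-ras KO 3 were below -1 (11.1%, against 7.08% of all). Of the probe sets, 18 were in both sets, 4 had the opposite pattern, with WT 3 below -1 and N-ras KO 3 above 1, and 0 had both genotypes on the same side. By contrast, at most 4 probe sets stood that far out in any of the other pairs. Across the 243 probe sets, the unstimulated values of WT 3 and N-ras KO 3 correlated at -0.71 (-0.63 over all 45101), a description of 2 arrays that share the normalization.

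The 18 probe sets include some of well-known chromatin enzymes. Ezh2 read 2.38 and 2.76 on the arrays WT 3 and -2.35 and -2.56 on the arrays N-ras KO 3. Smarca4 1426805_at read 2.70 and 3.02 against -2.23 and -2.71 (the other Smarca4 probe set 0.09 and 0.29 against -1.10 and -0.74), the deacetylases Hdac1 (1448246_at) 1.05 and 1.24 against -1.62 and -1.76 and Hdac3 (1426437_s_at) 1.68 and 1.83 against -2.56 and -1.68, the demethylase Kdm1a (1426762_s_at, 1 of 2) 1.49 and 1.45 against -2.14 and -1.64, and the acetyltransferase Kat2a (1422972_s_at, 1 of 3) 1.74 and 2.57 against -1.04 and -1.66. The NuRD remodeller Chd4 (1451295_a_at) had the opposite pattern, with -1.65 and -1.52 against 1.12 and 1.53. Markers of other cells differed on the same arrays. The mean over 8 probe sets of immature thymocyte genes was -1.45 and -1.58 on the arrays WT 3 and 1.58 and 0.54 on the arrays N-ras KO 3, that of 9 B-cell probe sets was 0.55 and 0.87, and 0.85 and 1.29, and on the other arrays the 2 lists lay between -0.75 and 0.34 and between -0.57 and 0.28. The mean over 8 T-cell probe sets was 0.43 and 0.29 on the arrays WT 3 and -0.41 and -0.62 on the arrays N-ras KO 3, and between -0.28 and 0.05 on the others. That over 53 proliferation probe sets was 0.27 and 0.76, and -0.52 and -0.25, with -0.24 to 0.46 on the others. Their part in the values of the chromatin genes was not tested.

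**Figure D4:**
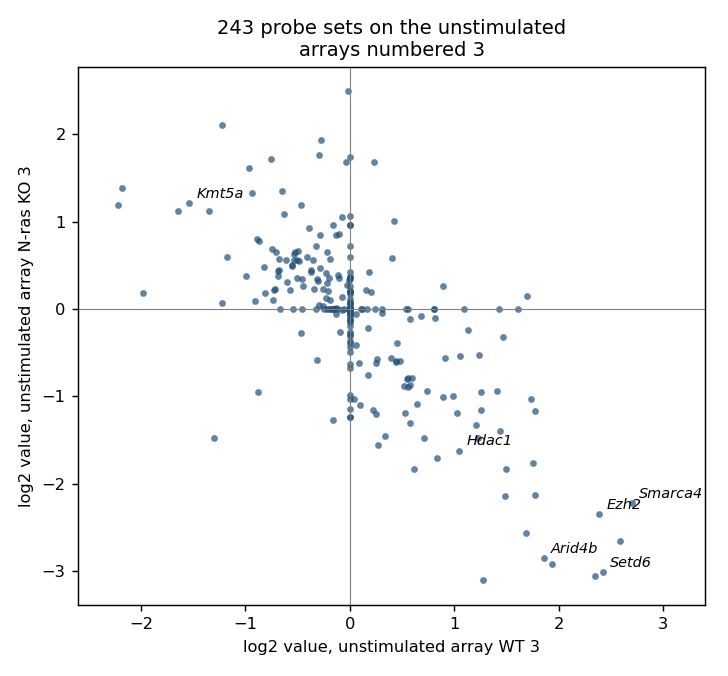
Centred log2 values of the 243 probe sets on the unstimulated arrays WT 3 (horizontal) and N-ras KO 3 (vertical), 1 point per probe set. The points fall along a line from upper left to lower right (correlation -0.71), and points on the axes are those where an array holds the median, 0.

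Leaving out the 4 arrays numbered 3 gave more calls between stimulated cells labelled WT and N-ras KO, from 2 arrays a group: 16 of 243 were higher (6% of all probe sets) and 18 lower (5.38% of all), in 26 genes, and 9 of the 12 probe sets named above were among them. None passed an adjusted p of 0.05. The groups labelled WT then still held the arrays WT 1, which are of doubtful label. Several genes had more than 1 called probe set on the same side. Cbx5 had 1.70 and 0.88, Setd6 1.35 and 0.98, Smarcad1 1.15 and 0.75, and Kat7 2.59 and 0.65 higher in cells labelled WT. Arid4b (-2.04, -1.60 and -1.05), Kmt2c (-1.44 and -0.88) and Kdm2a (-1.39 and -1.31) were lower. Neither of these Kdm2a probe sets was called on all arrays. On all arrays, the last 2 of these Arid4b probe sets differed by 0.07 and -0.001. Kmt2a 1452377_at, lower in WT thymocytes, was -0.60 here and -0.12 on all arrays. In the Kmt group, 21 of 25 differences were then negative (median -0.31), against 13 of 25 on all arrays. The Chd group had a lower median in the same setting, -0.37, with 15 of 24 negative. No share over all probe sets was counted for these signs. This setting was chosen after the values were seen.

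Probe sets of the same gene often pointed in opposite directions, in chromatin genes as in the other genes of the CD4+ T-cell arrays. In the 70 member genes with several probe sets, 59.7% of 268 pairs had the same sign in the response labelled WT (58.2% of pairs over all genes), 61.9% in the response labelled N-ras KO (56.6%), 57.1% in the difference of the responses (55.7%) and 55.6% between stimulated cells (55.6%). In thymocytes, of pairs in which neither value was 0, 27 of 48 agreed in WT minus N-ras KO (56.3%, against 70.6% of all genes) and 25 of 48 in WT minus H-ras KO (52.1%, against 73.1%). In each of 9 genes that were plotted because 1 of their probe sets was called between stimulated cells, no other probe set was called. Ezh1, the second Polycomb methyltransferase, had the widest spread in cells labelled N-ras KO, from -1.09 in 1429629_at to 1.51 in 1429630_at, where the stimulated array N-ras KO 3 read -2.31 and 4.03.

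**Figure D5:**
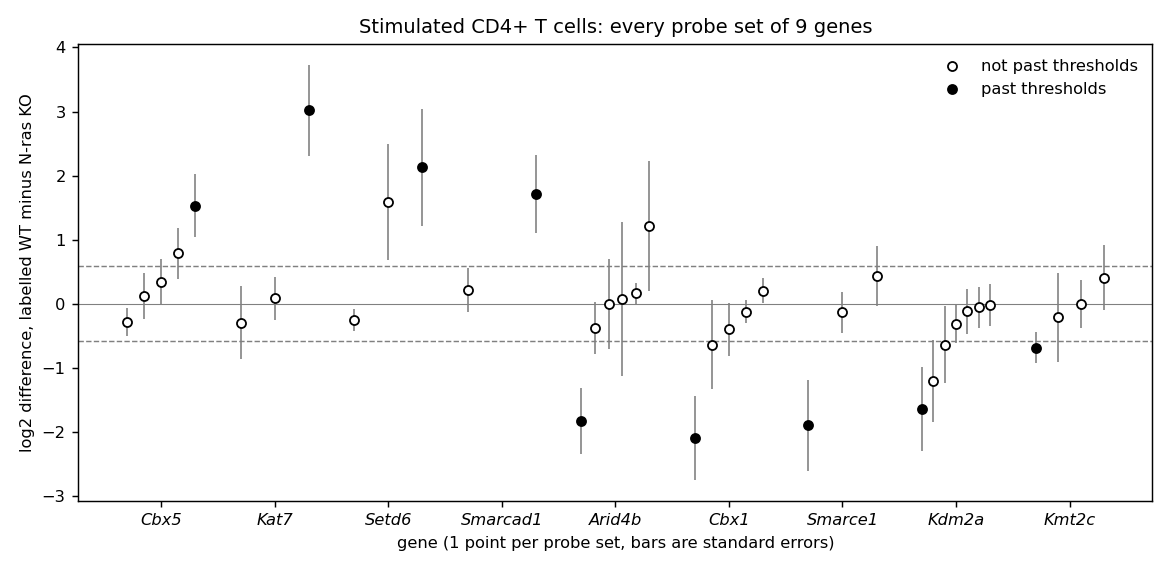
Log2 difference of stimulated CD4+ T cells, labelled WT minus labelled N-ras KO, for every probe set of 9 genes, with limma standard errors; filled points are past the study's thresholds, open points are not, and dashed lines mark 1.5-fold. Each gene has 1 filled point, from 3.02 in Kat7 to -2.09 in Cbx1, and the open points mostly lie closer to 0.

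Thymocytes and CD4+ T cells were set side by side through probe sets on both array types. The measures are unlike: thymocyte values share a baseline, while stimulated CD4+ T cells were read above each genotype's own unstimulated baseline. Among 98 member probe sets with a difference other than 0 in thymocytes, 50 had the same sign for WT minus N-ras KO in stimulated CD4+ T cells (51.0%, against 50.1% of all). For Cbx5, WT minus N-ras KO was positive past the thresholds in both experiments, but by different probe sets. These were 1450416_at in thymocytes (0.72, and 0.12 in stimulated CD4+ T cells) and 1421933_at in CD4+ T cells (1.53, and -0.07 in thymocytes). For Kmt2c it was likewise negative in both, through 1427150_at in thymocytes (-0.72, and 0.41 in stimulated CD4+ T cells) and 1434178_at in CD4+ T cells (-0.68), which the thymocyte arrays do not hold. Whether the level in CD4+ T cells differs between the genotypes cannot be read from such values.

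Partners of these enzymes were counted at the same thresholds, to be read against the shares of all probe sets given above (0.53% higher and 0.51% lower in the response labelled WT, 1.16% and 1.19% in that labelled N-ras KO, and 3.33% and 3.57% between stimulated cells). Of 65 probe sets of Polycomb partners, none was called in cells labelled WT, 1 was higher in cells labelled N-ras KO (Phf19, 0.64), and 3 were higher and 4 lower between stimulated cells. With arrays paired by number, 1 was lower in cells labelled WT, and 0 were higher and 2 lower in cells labelled N-ras KO, so that the call of Phf19 was lost. With array number over both genotypes as a block, 2 were higher and 4 lower between stimulated cells. No share over all probe sets was counted for the fit with that block. The list of BAF and ISWI partners (74 probe sets) also takes in other remodelling genes, among them Hells and Ep400. In this list 1 probe set was higher in cells labelled WT, that of the helicase Hells (0.87). It also stood higher between stimulated cells (0.94), with Brd7 (1.27). The call of Brd7 was lost with array number over both genotypes as a block. With arrays paired by number within a genotype, 1 probe set was called higher in cells labelled N-ras KO. Partners of the Kmt2 methyltransferases and the Nsd genes (43 probe sets), of the acetyltransferases (52) and of the deacetylases (43) had no call in either response by the unpaired fit. With pairing, the first and the last of these lists each had 1 lower in cells labelled WT and 1 higher in cells labelled N-ras KO, and the acetyltransferase partners had 1 lower in each genotype. Between stimulated cells the 3 lists had 1 higher and 1 lower, 1 higher and 2 lower, and 0 higher and 1 lower. With array number over both genotypes as a block, the acetyltransferase partners had 0 higher and 1 lower.

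The DNA methylation list (29 probe sets of 10 genes) had 2 probe sets called higher in each response and 3 between stimulated cells, and none lower. Each value below is that of 1 probe set, and no other probe set of the list was called by the unpaired fit. Uhrf1 (1.76), which guides the maintenance methyltransferase, and the de novo methyltransferase Dnmt3a (0.85) were higher in cells labelled WT. Dnmt3b (1.03) and Dnmt3a (0.77) were higher in cells labelled N-ras KO, where pairing gave 2 higher and 2 lower. Tet1 (2.54), Uhrf1 (1.25) and Tet3 (0.86) were higher in stimulated cells labelled WT than labelled N-ras KO. Of 53 proliferation probe sets, 3 and 2 were higher after stimulation in the cells labelled WT and N-ras KO, and with pairing 8 were higher in the former and 5 higher and 1 lower in the latter. None of these passed an adjusted p of 0.05.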

How the data were processed

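The authors deposited log2 values made with RMA (a background correction, normalization and summary of Affymetrix probes, named without a version in the submitters' notes), with quantile normalization and a baseline set to the median of control samples. These were used as deposited, and all 15 value columns were used. Gene symbols came from the platform tables of GEO. On the CD4+ T-cell arrays 34958 of 45101 had 1 gene, 932 had several and 9211 had none, and on the thymocyte arrays 20393 of 22690 had 1, 691 several and 1606 none. Probe sets with several genes were left out of the members. The members, gene lists and tests were chosen with earlier results of these data known.

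CD4+ T cells were tested with limma 3.58.1 in R 4.3.3 (4 group means over 12 arrays, two-sided, Benjamini-Hochberg adjustment over all 45101 probe sets). The fit was tested on simulated data. The methods' t-test, other normalizations, array weights, fewer probe sets and each array left out in turn were tried. Arrays of 1 genotype and number deviated together in all 6 pairs (correlation 0.361 to 0.738), so paired values stand beside unpaired ones for most counts that they move. A comparison of stimulated cells between genotypes cannot use these pairs, and its block was the array number across both genotypes. The study's methods say both that sorted cells were split and that each condition had its own mouse, and p-values measure the spread between these arrays. Thymocytes were compared by fold, without a test. Precision is limited by how few arrays there are.

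The named genes are those the paper names in its text (Cbx5 and Kmt2c); up to 8 per direction past the thresholds with groups that do not overlap, or past 1.5-fold in thymocytes; the smallest p per prefix in the difference of the responses; the 5 widest spreads between probe sets; and those with all paired differences of 1 sign. Genes that are named otherwise were chosen after their values were seen.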

Additional observations from a re-analysis of the deposited data

Results flagged for a closer look

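In 6 member probe sets, all 3 paired differences of the cells labelled WT went one way and all 3 of the cells labelled N-ras KO the opposite way (0.823% of 243 with WT higher and N-ras KO lower, against 1.54% of all probe sets, and 1.65% the reverse, against 1.43%). The difference of the 2 responses was tested by limma, and in none of the 6 did it pass an adjusted p of 0.05. It was 0.49 for Ezh2 1416544_at and 0.35 for Kat7 1433433_at, where cells labelled WT were higher after stimulation, and -1.03 for Kdm4c 1424458_at, -0.87 for Hdac5 1415743_at, -0.71 for Arid2 1426525_at and -0.36 for Hdac4 1436758_at, where they were lower.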

How the results depend on the processing

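No setting reversed a direction among the named results. In 51 of 331 repeats a named difference was no longer past the thresholds, as given beside each in the report where an array decided it; the cause was not tested. Counts of called member probe sets are given in the order response labelled WT, response labelled N-ras KO, difference of the responses and stimulated WT minus N-ras KO, where the main counts were 2, 1, 0 and 12. With a replicate block they were 4, 10, 8 and 11. For the first 3 counts the block pairs arrays of 1 genotype and number, and it changed them by over 1.5 times. For the last count the block is the array number across both genotypes, which joins arrays that deviated in opposite directions. The calls of Setd6 and Ezhip ended in that fit. Array quality weights gave 5, 4, 7 and 23, and 1 probe set per gene, which tests fewer probe sets, gave 0, 0, 0 and 4. Without the arrays labelled WT 1 and N-ras KO 3 the counts were 3, 3, 3 and 11, and without the 4 arrays numbered 3, a setting added after the data were seen, 7, 4, 9 and 34. A second quantile normalization gave 1 for the response labelled WT and 1 for the difference of the responses. For the response labelled N-ras KO, the methods' t-test gave 0 and a fit of its 2 groups alone gave 4. Shares over all probe sets were counted at these thresholds for the main fit and for the first 3 counts with the block. Without the 4 arrays numbered 3, a share was counted for the last count only. The other settings, with those that leave out an array, have none, so their counts do not set members apart from all probe sets. Leaving out each array in turn gave 1 to 4, 1 to 6, 0 to 5 and 10 to 19. The first count moved without the stimulated WT 2 or the unstimulated WT 1 or WT 3; the second without any N-ras KO array, the stimulated WT 2 or the unstimulated WT 3; the difference without any array but the unstimulated N-ras KO 1 and WT 2 and the stimulated WT 2; and the last only without the stimulated N-ras KO 2.

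In thymocytes, where 4 and 2 member probe sets were past 1.5-fold from N-ras KO and H-ras KO, none were past 2-fold (0 and 0), 2 and 1 remained with 1 probe set per gene, and quantile normalization left 1 for H-ras KO. Pairs of probe sets with the same sign in the response labelled N-ras KO were 50.4% without the arrays labelled WT 1 and N-ras KO 3, and 50.4% without the 4 arrays numbered 3. In all, 78 repeats of a count or share stayed within 1.5 times (counts) or within the counting interval (shares), and 48 did not. Signal over background cannot be read from centred values, so no filter on dim probe sets was possible.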
